A study of Drosophila melanogaster with 2 samples.

Results

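The gap genes of Drosophila melanogaster are the segmentation genes hunchback (hb), Krüppel (Kr), knirps (kni), knirps-like (knrl), giant (gt), tailless (tll) and huckebein (hkb). These 7 of 13945 annotated protein-coding genes were chosen by name, and binding of the CG2875 protein around them was read from peak lists. A peak belonged to a gap gene if its summit lay within 500 bp of one of the gene's transcription start sites (TSSs; a promoter peak). It also belonged if it lay elsewhere within 15 kb of the gene body and nearer to that body than to the TSS of any other protein-coding gene (a distal peak). The experiment was chromatin immunoprecipitation followed by sequencing (ChIP-seq) with an anti-GFP antibody, in flies stably carrying CG2875 with GFP fused to its C-terminus. There was 1 group of 2 biological replicates, replicate 1 and replicate 2, each of whole embryos of pooled sex aged 0 to 14 h, and both came from the same transgenic line. No untagged line and no second condition was analysed here, and the sources used here do not name the promoter that drives the fusion.

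Gap genes encode transcription factors expressed in broad domains of the early embryo, before cells form. Maternal gradients such as Bicoid activate or restrict them, they repress each other at their shared borders, and together they place the stripes of the pair-rule genes. Several are used again later, hb and Kr in the temporal series of dividing neuroblasts, for example. Their enhancers lie up to many kilobases from the promoters. The collection window spans many stages and whole embryos hold all tissues, so binding in fewer cells and weaker binding in each cell cannot be told apart.

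The 4 lists used were all on the dm6 assembly. The IDR list, filtered by irreproducible discovery rate which keeps peaks ranked reproducibly in both replicates, held 4278 peaks, which were the 4278 strongest of the pooled list. The pooled list, called on both replicates together, and the lists of replicate 1 and replicate 2 held 30000 peaks each and include background by design. Each peak carries the authors' signal value, the peak caller's measure of enrichment within its own list, so ranks rather than signals are set side by side between lists. Signals in the IDR list ran from 119 to 2332, and the median over the pooled list was 49.5. Peak lists hold no read totals, so depth is unknown.

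No gap gene had a peak in the IDR list. At promoters the count was 0 of 7, where 14.0% of all protein-coding genes had an IDR peak. With distal peaks included the count was again 0 of 7, against 23.8% of protein-coding genes. The exact binomial (Clopper-Pearson) 95% interval for 0 of 7, with a tail on either side, ends at 41.0%. This end lies above both shares, so 7 genes alone cannot tell the gap genes from protein-coding genes in general. The interval treats the 7 genes as independent draws, although kni and knrl are neighbours. The genes were also chosen by name, with earlier results of these data known. Gap genes have more sequence assigned to them than most genes. The stretch nearer to the gene than to another coding TSS came to 161 kb over the 7 genes, from 9.98 kb at gt to 46.8 kb at knrl, and the median over protein-coding genes was 6.09 kb. Among the 4531 protein-coding genes with at least 9.98 kb, 37.5% had an IDR peak, also below 41.0%. Genes with still more sequence had an IDR peak more often. Of the 1929 genes with at least 20 kb, 52.2% had no IDR peak, and of the 636 with at least 40 kb, 44.0%. The shares with one were thus above 41.0%, but the interval for 0 of 7 cannot be set against them, since not all 7 genes are that long. Kr, kni, knrl and tll have at least 20 kb, only knrl at least 40 kb, and hb, gt and hkb less than 20 kb. In the sequence of the 4531 genes IDR peaks occurred at 0.295 per 10 kb. Over the 161 kb where 0 were found, that corresponds to 4.76 peaks. This rate is a description across genes, and no test was made of it.

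The single replicates gave the same count. Among the 4278 strongest peaks of replicate 1, 0 belonged to a gap gene, where 23.7% of protein-coding genes had a peak. Among the 4278 strongest peaks of replicate 2 the count was also 0 of 7, where the share of protein-coding genes was 23.9%.

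The nearest IDR peaks were assigned to other genes. One of these lay within 15 kb of the hb gene body, 14149 bp beyond its 3' end, with a signal of 191 (rank 2081), but its summit was 84 bp from a TSS of CG8043. Another lay 10169 bp upstream of the knrl TSS with a signal of 122 (rank 4138) and was 6371 bp from a TSS of CG13251. These 2 were the only IDR peaks within 15 kb of any gap gene body. Just outside that reach, a peak of 225 lay 16227 bp upstream of kni and 2495 bp from a TSS of CG34260. Measured from their own TSSs, the nearest IDR summit was 10.2 kb away for knrl, 16.2 kb for kni, 17.8 kb for hb, 32.2 kb for gt, 34.8 kb for tll, 48.6 kb for hkb and 59.2 kb for Kr. The median over the 7 was 32.2 kb, and that over protein-coding genes was 9.33 kb.

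The strongest sites around the gap genes are in the relaxed lists and not in the IDR list, and 5 sites of the pooled list are printed here because they are where any binding at these loci would be sought first. They are the strongest pooled sites of knrl, tll and hb, the second strongest of kni, since the strongest lies in its 3' UTR, and the single pooled site of gt. Each is the summit base with 75 bases on either side, read from the RefSeq Release 6 (dm6) plus strand, and capitals mark matches on either strand to the motifs named after them.
knrl intron, chr3L:20619270-20619420: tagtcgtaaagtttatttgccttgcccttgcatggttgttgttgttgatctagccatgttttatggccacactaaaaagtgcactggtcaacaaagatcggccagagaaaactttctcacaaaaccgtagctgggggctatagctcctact
tll downstream, chr3R:30860373-30860523: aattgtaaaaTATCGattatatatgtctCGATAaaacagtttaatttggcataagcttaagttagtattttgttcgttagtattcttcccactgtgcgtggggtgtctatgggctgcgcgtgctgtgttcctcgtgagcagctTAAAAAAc
hb upstream, chr3R:8704259-8704409: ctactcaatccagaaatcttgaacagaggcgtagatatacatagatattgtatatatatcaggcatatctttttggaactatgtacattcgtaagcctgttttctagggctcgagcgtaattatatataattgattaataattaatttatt
kni upstream, chr3L:20700758-20700908: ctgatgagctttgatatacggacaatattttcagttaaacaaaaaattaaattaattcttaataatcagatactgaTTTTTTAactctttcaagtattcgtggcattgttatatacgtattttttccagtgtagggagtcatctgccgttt
gt promoter, chrX:2429002-2429152: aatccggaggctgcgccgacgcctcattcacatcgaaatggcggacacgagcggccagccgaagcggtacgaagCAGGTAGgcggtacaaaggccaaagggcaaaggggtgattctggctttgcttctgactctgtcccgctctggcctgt

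The capitals mark the Hunchback word TTTTTTA in the tll and kni sites, the BEAF-32 word CGATA in the tll site, and the Zelda word CAGGTAG in the gt site. Zelda is the factor that opens early embryonic enhancers, and BEAF-32 is an insulator protein. In longer windows, with 150 bp on each side of the strongest pooled summit of each gap gene, 12 motifs were searched on both strands, overlapping matches included. The kni window is that of its 3' UTR site, so the kni matches in these windows are not in the kni sequence printed above. CAGGTAG was in 2 of the 7 windows, those of kni and gt, and in 1.45% of the 4278 IDR windows and 1.68% of the weaker pooled windows. CGATA was in the tll window alone, with 3 matches, against 33.5% of IDR windows. TTTTTTA was in the windows of kni and tll, against 28.0% of IDR windows. The Krüppel word GGGTTAA was in the Kr window (3.06% of IDR windows), the Tailless word AAGTCAA in that of knrl (6.99%), the Stat92E word TTCNNNGAA in that of hkb (7.50%) and the word CACACACA in that of kni (7.95%). No window held the Bicoid word TAATCC (8.35% of IDR windows), the Caudal word TTTATTG (13.8%), the GAGA factor word GAGAGAG (8.86%), the DNA replication-related element TATCGATA, which includes CGATA (2.76%), or the Giant word TTACGTAA (0.514%). A match describes letters in the window and not a bound factor.

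**Figure D1:**
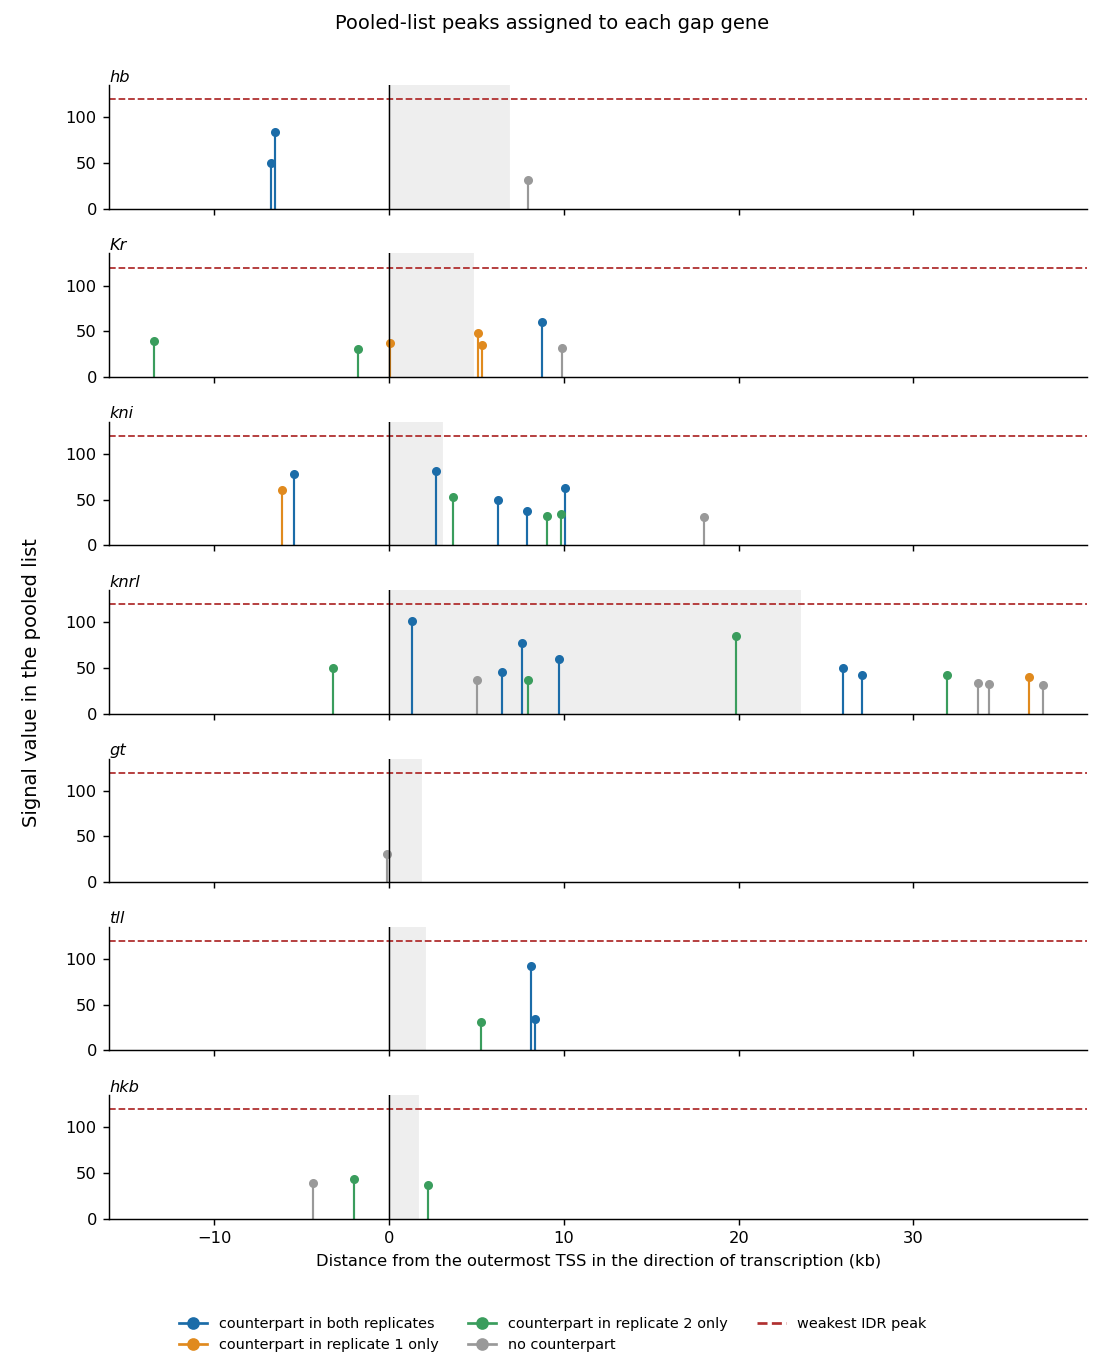
Signal value (y axis) of each pooled-list peak assigned to a gap gene against its distance in kb from the gene's outermost TSS in the direction of transcription (x axis), 1 panel per gene. Grey bands are gene bodies, colours show which replicate lists hold an overlapping peak, and the dashed line is the weakest IDR peak at 119; every one of the 42 peaks lies under it, and 25 of them belong to kni and knrl.

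In the pooled list 7 of 7 gap genes had at least 1 assigned peak. The share was 65.8% over all protein-coding genes and 82.6% over those with at least as much assigned sequence as gt. The peaks of the gap genes were weak. There were 42 in all, 2 at promoters and 40 distal. Their signals ran from 31.1 to 102 with a median of 40.9, and the median of all 25722 pooled peaks below the IDR list was 45.2. Per 10 kb of assigned sequence they numbered 2.60. Over all protein-coding genes the pooled list held 2.29 peaks per 10 kb, or 1.96 when the 4278 strongest peaks, none of which belongs to a gap gene, are left out. Without the 4278 strongest peaks of each replicate list the gap genes had 2.04 per 10 kb in replicate 1, against 1.97 over all protein-coding genes, and 1.92 in replicate 2, against 1.98. The higher density of weak peaks in the pooled list was thus not seen in replicate 2 and was small in replicate 1, and no test was made of it. Peaks of replicate 1 (33) reached 6 of 7 gap genes where 69.0% of protein-coding genes had a peak, and those of replicate 2 (31) reached 6 of 7 where 68.3% did. The shares of 69.0 and 68.3% are over genes of any length. In both lists gt was the gene without one.

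Not all of these peaks recurred in the replicates. Of the 42 peaks 16 (38.1%) had a counterpart in both replicate lists with a reciprocal overlap of at least 50%, against 44.6% of all pooled peaks below the IDR list. Another 5 had a counterpart in replicate 1 only, 12 in replicate 2 only, and 9 (21.4%) in neither, where the last share was 7.22% over the weaker pooled peaks. By annotation 26 of the 42 summits were intergenic and 13 intronic, with 1 each in a 5' UTR, a 3' UTR and a non-coding exon. The intronic summits lay in introns of knrl or, for all distal Kr peaks, in introns of another gene, CG9380. The median GC content within 150 bp of the summits was 39.4%, with 40.9% over the weaker pooled peaks and 37.9% over IDR peaks.

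In each relaxed list at most 2 of the 7 gap genes had a promoter peak. So few genes cannot tell such counts from the background shares, and no test was made. Pooled promoter peaks were found at 2 of 7, Kr and gt, where 45.3% of protein-coding genes had one. Replicate 1 had promoter peaks at hb and Kr (2 of 7, background 43.8%), and replicate 2 at hb (1 of 7, background 47.3%). The hb gene has 2 TSSs, and the replicates marked different ones. The replicate 1 summit lay 440 bp inside the downstream TSS with a signal of 17.1 (rank 28538 of 30000). The replicate 2 summit lay 318 bp inside the upstream TSS with a signal of 30.0 (rank 15492). No pooled peak covers either, so neither was shared.

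Among the trunk gap genes, hb (FBgn0001180, 3R:8690980-8697822, minus strand) encodes a zinc finger protein of the anterior embryo and is a direct target of Bicoid. Its strongest pooled peak (signal 83.9, rank 7037, -log10 q of 1.77) was intergenic, 6512 bp upstream of the gene. Replicate 1 had a summit 2 bp away with a signal of 50.3 (rank 4902), and replicate 2 one 49 bp away with 28.1 (rank 17291). The site was thus much higher in replicate 1 than in replicate 2 by rank. A second pooled summit of 50.3 lay 6729 bp upstream and overlapped it, and a peak of 31.7 beyond the 3' end had no counterpart in either replicate. With a reach of 5 kb in place of 15 kb only this last peak was assigned to hb.

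Krüppel (FBgn0001325, 2R:25226611-25231394, plus strand), a zinc finger repressor of the central embryo, had 7 pooled peaks, and none was strong. The highest (signal 60.1, rank 11297) lay 8745 bp downstream of the TSS in an intron of CG9380. Both replicates had it, with summits 12 bp away, at 34.7 in replicate 1 (rank 8769) and 29.1 in replicate 2 (rank 16355). The promoter peak was 85 bp inside the gene, in its 5' UTR, with a pooled signal of 37.5 (rank 22490). Replicate 1 had a counterpart of 24.7 (rank 15540) and replicate 2 had none. Of the remaining 5 peaks 2 were shared with replicate 1 only, 2 with replicate 2 only and 1 with neither.

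The paralogues kni and knrl, neighbours on 3L that encode zinc finger proteins of the nuclear receptor type and share functions in the head and tracheae, held 25 of the 42 pooled peaks in 74.2 kb of assigned sequence. The other 5 genes held 17 in 87.3 kb. Both paralogues had peaks in their own transcribed sequence, and neither had a promoter peak in any of the 4 lists.

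For kni (FBgn0001320, 3L:20692330-20695378, minus strand) the strongest of 10 pooled peaks (signal 81.1, rank 7365) had its summit in the 3' UTR at position 20692695. Replicate 1 gave 44.8 there (rank 5838) and replicate 2 gave 37.5 (rank 11021). The second (signal 78.4, rank 7719, the kni sequence printed above) lay 5455 bp upstream, with 35.1 in replicate 1 (rank 8613) and 47.1 in replicate 2 (rank 7765). The order of these sites was thus opposite in the 2 replicates. A peak of 60.2 at 6136 bp upstream was found in replicate 1 only, and 1 of 53.0 at 2842 bp from the nearest TSS in replicate 2 only, where its signal was 48.7 (rank 7386). A further shared site of 62.8 lay downstream, 9254 bp from the nearest TSS.

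For knrl (FBgn0001323, 3L:20597141-20620659, minus strand) the strongest of 15 pooled peaks was also the strongest at any gap gene. Its signal of 102 (rank 5348, -log10 q of 2.75) placed it 1314 bp inside the gene in an intron. It was still weaker than the weakest IDR peak. Replicate 2 had a summit 2 bp away with a signal of 66.8 (rank 4564). Replicate 1 had a summit at the same base with 33.7 (rank 9210) and a second, 201 bp away, with 44.4 (rank 5914). Farther in, an intronic peak of 85.4 at 19832 bp from the TSS (rank 6859) was found in replicate 2 only, at 52.7 (rank 6590). Intronic peaks of 77.1 and 60.2, at 7621 and 9713 bp, were found in both. A peak of 50.4 lay 3224 bp upstream in an exon of lncRNA:CR44684 and was found in replicate 2 only.

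Giant (FBgn0001150, X:2427113-2428967, minus strand), a basic leucine zipper repressor, had the fewest peaks of the 7 genes. Its single pooled peak (signal 31.1, rank 29235 of 30000, -log10 q of 0.102) lay 110 bp upstream of the TSS, and neither replicate list held a counterpart. The gt site was therefore at the bottom of the list, and 65.2% of protein-coding genes had a stronger assigned peak.

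The terminal gap genes tll and hkb act at both ends of the embryo downstream of the Torso receptor. Tailless (FBgn0003720, 3R:30852315-30854400, plus strand) is an orphan nuclear receptor, and its strongest pooled peak (signal 92.8, rank 6120, -log10 q of 2.26) was intergenic, 8133 bp downstream of the TSS. Replicate 1 had a summit at the same base with 45.2 (rank 5762). Replicate 2 had 2 summits on either side, at 51.3 (142 bp away, rank 6852) and 23.9 (72 bp away, rank 22182). The replicates thus ranked the site alike only if the farther of the replicate 2 summits is taken. The site lies between genes, 7073 bp from a TSS of Cpr100A. By distance to the TSS of tll it was not assigned to tll, whose strongest peak was then 31.4.

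Huckebein (FBgn0261434, 3R:4345015-4346646, minus strand), a zinc finger protein, had 3 weak pooled peaks. The highest (signal 43.6, rank 18049) lay 2004 bp upstream, with a replicate 2 summit of 39.0 (rank 10359) and none in replicate 1. The only peak of replicate 1 assigned to hkb had a signal of 17.1 (rank 28382) and lay 3353 bp upstream. No pooled peak of hkb was thus shared by both replicates.

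**Figure D2:**
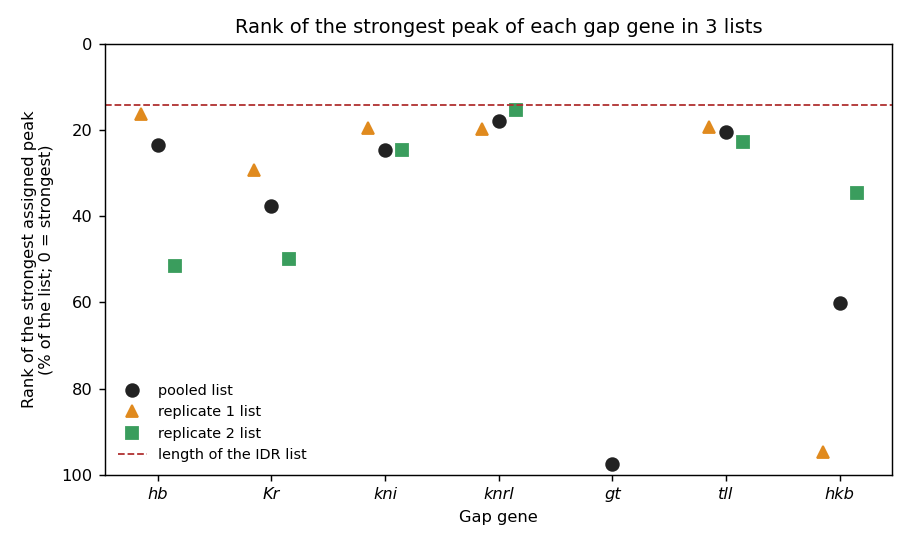
Rank of the strongest peak assigned to each gap gene, as a percentage of the list (y axis, 0 at the top is the strongest peak), in the pooled list (circles), the replicate 1 list (triangles) and the replicate 2 list (squares); the dashed line marks the length of the IDR list. All points lie below the line, knrl is closest to it at 17.8% in the pooled list, the replicates are far apart for hb and hkb, and gt has a pooled point only, at 97.5%.

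In order of the strongest pooled signal the genes ran knrl (102), tll (92.8), hb (83.9), kni (81.1), Kr (60.1), hkb (43.6) and gt (31.1). By rank of the strongest assigned peak, knrl stood at 19.7% of the replicate 1 list and 15.2% of the replicate 2 list, tll at 19.2 and 22.8%, kni at 19.5 and 24.6%, and Kr at 29.2% in replicate 1 and rank 14995 of 30000 in replicate 2. For hb the ranks were 16.3 and 51.6%, and for hkb 94.6 and 34.5%. The first gene was thus hb in replicate 1 and knrl in replicate 2, so the order among knrl, tll, hb and kni does not hold beyond the spread between replicates. In both replicate lists gt, with no peak, was last, and both Kr and hkb were below knrl, tll and kni.

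**Figure D3:**
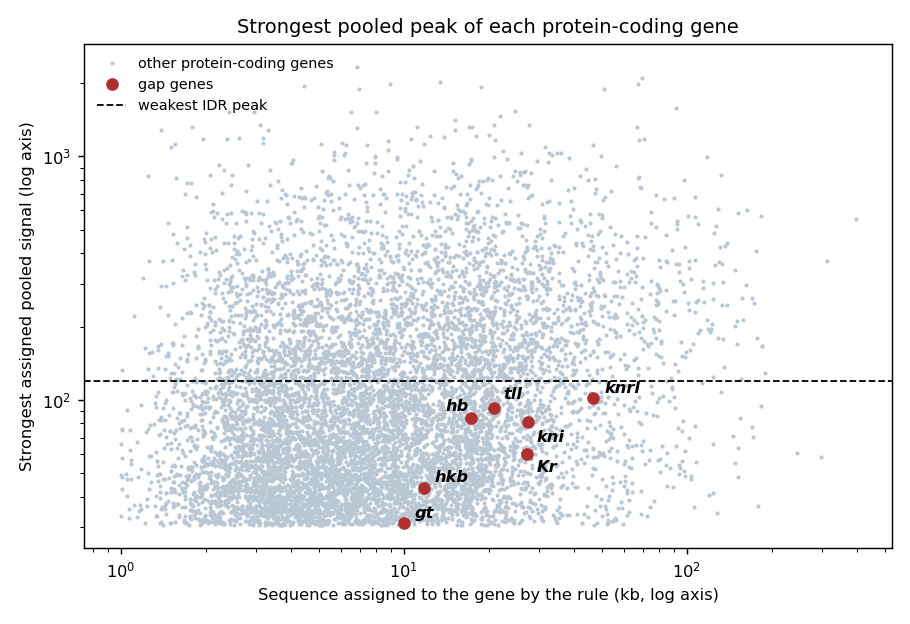
Strongest assigned pooled signal of each protein-coding gene that has one (y axis, log scale) against the length of sequence assigned to it in kb (x axis, log scale); red points are the gap genes and the dashed line is the weakest IDR peak at 119. The 7 gap genes lie under the line, from 31.1 at gt to 102 at knrl, among many genes of like length on both sides of it.

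Set against all protein-coding genes of any length, the strongest peaks of the gap genes had a like median and lacked the upper part of the range. The median of the strongest pooled signal was 81.1 over the 7 genes and 83.0 over the 9174 protein-coding genes with a pooled peak. Each gap gene has at least 9.98 kb of assigned sequence, and the median over protein-coding genes was 6.09 kb. These medians and the shares that follow therefore do not compare genes of like length. A stronger peak than that of the gene in question was assigned to 27.6% of protein-coding genes for knrl, 30.0% for tll, 32.6% for hb, 33.6% for kni, 42.3% for Kr and 53.3% for hkb. Absence of IDR peaks was not rare among genes with much assigned sequence. Of the 1929 protein-coding genes with at least 20 kb, 52.2% had none. The interval for 0 of 7 cannot be set against those genes, since hb, gt and hkb have less than 20 kb.

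**Figure D4:**
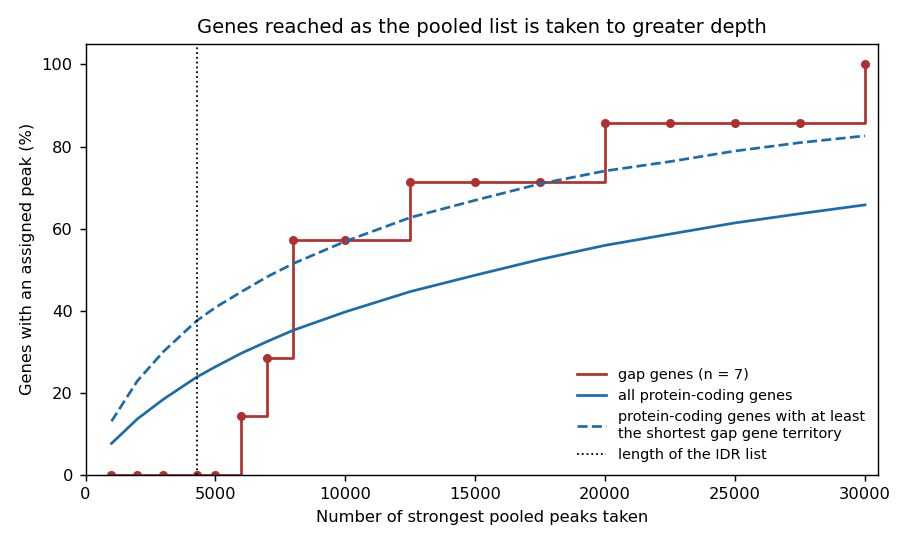
Share of genes with an assigned peak (y axis, %) among the strongest peaks of the pooled list taken to the depth on the x axis (number of peaks); red steps are the 7 gap genes, the solid line all protein-coding genes, the dashed line those with at least as much assigned sequence as gt, and the dotted line the length of the IDR list. Gap genes stand at 0 up to 5000 peaks and at 4 of 7 by 8000 peaks.

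Taking the pooled list deeper brought in 4 of the 7 gap genes between ranks 5348 and 7365, and the other 3 later. None was reached among the strongest 5000 peaks, 1 among 6000, 2 among 7000 and 4 among 8000. Among the strongest 10000 peaks, a depth chosen after the values were seen, 4 of 7 gap genes (knrl, tll, hb and kni; 57.1%) had 7 peaks between them. At that depth 39.7% of all protein-coding genes had at least 1, and 56.9% of those with at least as much assigned sequence as gt. The rate over all protein-coding genes corresponds to 12.4 peaks over the 161 kb of the gap genes, where 7 were found. That depth includes the IDR list, whose rate over all protein-coding genes corresponds to 5.35 peaks, where 0 were found. The lower count at this depth thus largely restates the absence of IDR peaks and is not a separate result. Neither rate was matched for length of assigned sequence. Kr was reached at rank 11297, hkb at 18049 and gt at 29235.

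Other genes of the same network did have IDR peaks. Counts are given for lists of genes that regulate the gap genes, act like them or respond to them. Beside them stand the 23.8% of all protein-coding genes with any IDR peak, whose median assigned sequence was 6.09 kb. That share is not matched for length. It was 37.5% among genes with at least 9.98 kb, and 52.2% of genes with at least 20 kb had no IDR peak. No test of a difference from the gap genes or from these shares was made. The lists, like the gap genes, were chosen with earlier results of these data known. The lists differ in assigned sequence, from 71.4 kb for 4 corepressor genes to 402 kb for 12 maternal and terminal genes, of which pum alone holds 173 kb.

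Maternal and terminal inputs had an IDR peak at 8 of 12 genes, at the promoter for 3. The 4 without one were nos, osk, tor and trk. The strongest were at Raf, the kinase downstream of Torso (1008, rank 48, 465 in replicate 1 and 530 in replicate 2), cic, the repressor that Torso signalling relieves (472), Stat92E (458, 375 bp inside the TSS) and the posterior activator gene cad (293). The promoter of bcd, named here after its value was seen because its product activates hb, had a peak of 220 (rank 1668) at 189 bp upstream, with 78.0 in replicate 1 (rank 2497) and 148 in replicate 2 (rank 1149). The bcd gene carried an IDR promoter peak, as 14.0% of protein-coding genes did, and its target hb, like most genes, did not.

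Head gap and gap-like genes had IDR peaks at 6 of 9, all distal. The strongest was 4313 bp upstream of slp2, a forkhead gene of the head and of segment borders, with a signal of 799 (rank 99, 398 in replicate 1 and 408 in replicate 2). The forkhead gene croc (400), the Sox gene D (271) and the head gap gene oc (223) followed. Among these 9 the head gap gene btd and the POU genes nub and pdm2 had none.

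Pair-rule targets had IDR peaks at 4 of 8, none at a promoter. These were ftz-f1 (227), odd (183), opa (161) and hry, listed as h (132). The other 4 were eve, run, ftz and prd. Among the corepressors that gap proteins recruit, 2 of 4 had one, Gug, which encodes Atrophin (988, rank 53), and gro (598, 153 bp upstream of the TSS). CtBP, the corepressor recruited by the Krüppel, Knirps and Giant proteins, had none and reached 81.8 in the pooled list, and HDAC1 had none. Of 3 genes that act with hb and Kr in the timing of neuroblast fates only grh had one (470), and cas and svp had none.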

How the data were processed

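Per the deposited file records, the replicate lists were derived from dm6 alignments with a shared control alignment, the pooled list from both alignments and the IDR list from the other lists. The authors deposited for each peak a signal value and a -log10 q. In the IDR list the latter has 1 value for all peaks, so it gave no ranks. The sources used here do not name the aligner, the peak caller or the IDR threshold. Depth is unknown, and the interval covers counting error only.

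Genes and TSSs came from Ensembl release 115 and sequence from RefSeq Release 6. Peaks were ranked by signal within a list, and coordinates are 1-based. Summits equal column 2 plus column 10. Sequence inside a gene body counts as that gene's own, so a peak can belong to 2 overlapping genes. Assigned sequence was measured in steps of 10 bp. The rule was checked on 600 planted summits, of which 600 were assigned as set. Motifs had been planned for IDR windows, and as the gap genes have none, the strongest pooled window was used. All 7 genes were named, and up to 4 genes of each list with the strongest IDR peaks. In the lists 2 older symbols (h, Atro) were matched by synonym, and nos, a synonym of 2 genes, was taken as nanos. Members and lists were chosen with earlier results of these data known. With 1 group of 2 replicates no test was run. Tables were handled in Python 3.11.15 with pandas 2.3.3 and numpy 2.4.6, the interval came from scipy 1.17.1, and plots were drawn with matplotlib 3.10.9.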

Additional observations from a re-analysis of the deposited data

How the results depend on the processing

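The 3 counts on the IDR list (gap genes with a promoter peak, distal peaks, genes with any peak) were 0 in 23 of 23 alternative results, which used TSS windows of 250 and 1000 bp, a reach of 5, 10 or 25 kb, distance to the gene's own TSS, competing TSSs of all genes, the stronger 50% of the list, or a single replicate (0 to 0 when each replicate was left out). Many of these alternatives could only give 0. A smaller window or reach, distance to the own TSS, more competing TSSs and the stronger 50% take peaks from a set that was already empty. The window of 1000 bp was settled too, as the nearest IDR summit lay 10169 bp from a TSS of a gap gene. Only the reach of 25 kb and the single replicates could have given another count. The number of pooled peaks at the gap genes (42) depended on list depth and reach. It was 16 in the stronger 50% of the pooled list, 7 among the strongest 10000 peaks and 25 with a reach of 5 kb, in each case because fewer peaks or less sequence were taken. It was 47 with a reach of 25 kb, 39 with distance to the own TSS and 41 with all genes competing. These alternatives for the pooled list, except the stronger 50%, were added after the data were seen. The strongest pooled signal fell to 31.7 for hb with a reach of 5 kb and to 31.4 for tll with that reach or with distance to its TSS, and that of kni was 97.1 with a reach of 25 kb. Pooled peaks found in both replicates numbered 16 by reciprocal overlap, 19 by any overlap and 13 by summits within 100 bp. As shares of the 42 peaks these were 38.1, 45.2 and 31.0%. Over all pooled peaks below the IDR list the shares were 44.6, 55.8 and 31.4%, so the last rule gave nearly the same share. No paired analysis was possible because there was 1 group. With 7 genes and 2 libraries of unknown depth, a binding site below the IDR list cannot be told from background.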
